A study of Homo sapiens with 6 samples.

Results

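Subunits of the receptors for GABA and glycine were examined in SH-SY5Y cells, a human neuroblastoma line, after reduction of PSF. PSF is the RNA-binding protein encoded by SFPQ. The genes were taken by symbol from a list of 8: GABRA3, GABRA5, GABRB1 and GABRB2 of the GABA-A receptor, GABBR1 and GABBR2 of the GABA-B receptor, and GLRA2 and GLRB of the glycine receptor. Of these 8, GABRA3, GABRB1, GABBR1, GABBR2 and GLRB had a row among the 21301 genes of the expression table, and all 5 passed the filter on low counts that left 19694 genes. GABRA5, GABRB2 and GLRA2 were not analysed here.

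The cells received either control siRNA (siControl) or an siRNA against PSF (siPSF, 10 nM) for 72 h, and 3 libraries were sequenced per group. All 6 libraries came from 1 cell line with no other genetic change stated, and siPSF lowers PSF without removing it. Poly(A) RNA was sequenced, with a sum of 101540520 to 132420931 deposited counts in a library. Levels are given as CPM, the count scaled to the normalized size of its library, and levels of different genes are ordered by FPKM, which also divides by exon length.

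GABA-A receptors are chloride channels built of subunits of several classes, and the alpha and beta subunits together form the binding site for GABA. GABA-B receptors are G protein-coupled: GABBR1 binds the transmitter, and GABBR2 carries the signal to the G protein and brings GABBR1 to the cell surface. Glycine receptors are chloride channels in which the beta subunit, GLRB, ties the channel to the scaffold protein gephyrin at inhibitory synapses.

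The knockdown was checked first in the targeted gene. SFPQ was at 372, 356 and 401 CPM in the siControl libraries and at 209, 193 and 165 CPM in the siPSF libraries. The 2 groups did not overlap, and 50.2% of the siControl level was left (log2 fold change -0.99, SE 0.10, adjusted p = 9.51e-05 by edgeR). Here and below, p-values come from the quasi-likelihood test of edgeR and are adjusted after Benjamini and Hochberg for all genes tested; a gene is called at an adjusted p under 0.05. All 11 markers of neuroblastoma and sympathetic neurons fixed for the check were tested and 10 were over 1 CPM, DBH, HAND2 and GATA2 being the highest. None of the 5 glial markers was tested. Of 3 immune and 3 epithelial markers, CD68 (2.14 to 2.98 CPM in siControl, 2.56 to 3.32 in siPSF) and EPCAM (1.73 to 2.38 CPM in siControl, 2.74 to 4.40 in siPSF) were tested. The 6 mesenchymal markers, led by PDGFRA, summed to 60.6 to 72.6 CPM in siControl and to 43.5 to 48.0 CPM in siPSF, and the part of these markers in the results below was not tested.

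Of the 5 receptor genes, GABRA3 after siPSF fell to 39.4% of its siControl level, and the other 4 did not pass the test. Over all genes tested, 14.9% were called at an adjusted p under 0.05, 8.27% lower and 6.65% higher. The count of receptor genes was 1 of 5 lower and 0 of 5 higher, and 0 of 5 were higher at an unadjusted p under 0.05 in the same edgeR test or by DESeq2's Wald test. Their median log2 fold change was -0.04, beside 0.01 over all genes tested. GABRA3 alone of the 5 had CPM values that did not overlap between the groups, in a table where siPSF lay wholly below siControl for 17.8% of genes and wholly above for 16.7%.

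**Figure D1:**
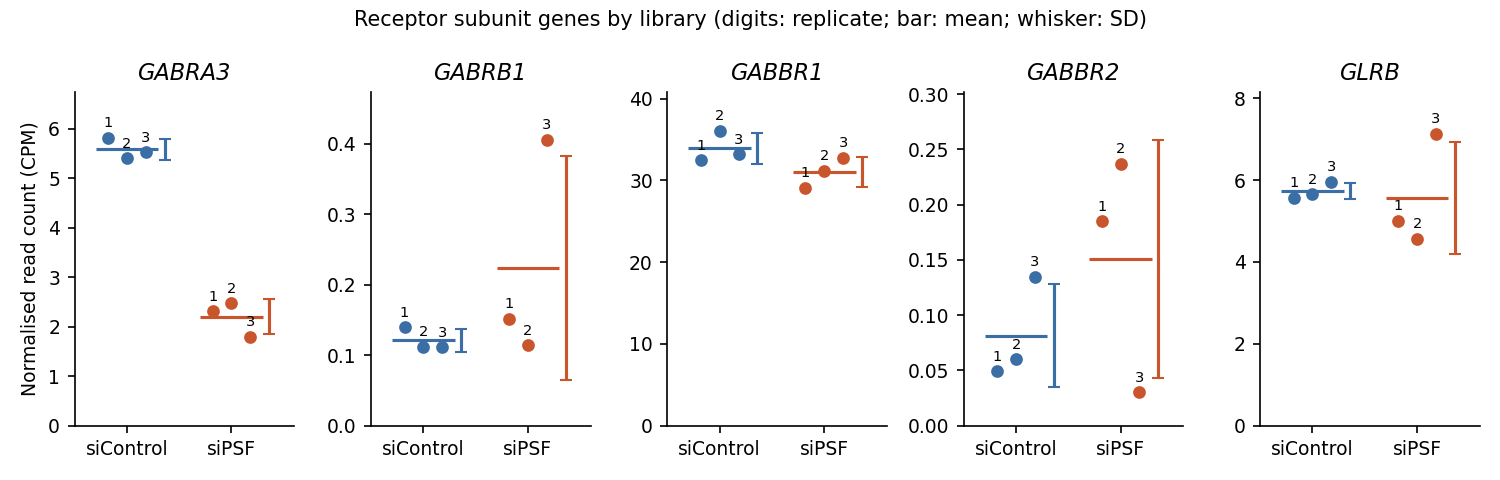
CPM of the 5 receptor genes in each siControl and siPSF library (points) with the group mean and SD (n = 3 per group), each gene on its own axis starting at 0. The 3 siPSF values of GABRA3, from 1.80 to 2.48 CPM, lie below its siControl values of 5.40 to 5.82 CPM, and the groups of the other 4 genes overlap.

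Among the GABA-A subunits, GABRA3 encodes the alpha-3 subunit, a subunit prominent in the developing brain and in monoaminergic neurons. It was at 5.82, 5.40 and 5.53 CPM in the siControl libraries and at 2.31, 2.48 and 1.80 CPM in the siPSF libraries. The siControl libraries were all above 5 CPM and all 3 siPSF libraries were below 2.5 CPM, siPSF 3 being the lowest. The mean of 5.58 ± 0.217 CPM in siControl became 2.19 ± 0.357 CPM (SD over 3 libraries), and the fitted log2 fold change was -1.34 (SE 0.16, 95% interval -1.68 to -1.01, adjusted p = 2.58e-04 by edgeR with Benjamini-Hochberg adjustment). This left 39.4% of the siControl level (31.1 to 49.8%), and the fall was 259th in size among the 19694 genes tested. The counts behind these values were 708, 720 and 696 against 274, 262 and 177, so counting error was small beside the difference. In bulk samples, fewer cells expressing a gene and less RNA per cell cannot be told apart.

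GABRA3 spans 285 kb of the X chromosome (chrX:152166234-152451315, minus strand, GRCh38.p14), of which 1.29% is exon in its canonical GENCODE transcript of 10 exons, and its longest intron is 86.5 kb. The nearest protein-coding genes in the table on either side were MAGEA10-MAGEA5 and GABRQ, which encodes another GABA-A subunit and lies 187 kb away. GABRQ had a log2 fold change of -0.05 (SE 0.21, adjusted p = 0.893 by edgeR). MAGEA10-MAGEA5 had one of 0.85 (SE 0.48, adjusted p = 0.259 by edgeR), so neither neighbour passed the test that GABRA3 passed. Both were at lower levels than GABRA3, GABRQ at 0.876 CPM and MAGEA10-MAGEA5 at 0.0937 CPM in siControl.

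GABRB1 encodes the beta-1 subunit of the GABA-A receptor and was near the lower end of detection. Its counts were 17, 15 and 14 in the siControl libraries and 18, 12 and 40 in the siPSF libraries, or 0.140, 0.112 and 0.111 CPM against 0.152, 0.114 and 0.406 CPM. One library, siPSF 3, set the higher mean of the siPSF group, and the other 2 siPSF libraries lay close to or inside the siControl range. The 40 counts of siPSF 3 have a 95% Poisson interval of 28.6 to 54.5 and the 12 counts of siPSF 2 one of 6.20 to 21.0, intervals that cover counting error only. The fitted log2 fold change was 0.86 (SE 0.48, interval -0.18 to 1.91, adjusted p = 0.252 by edgeR). Without siPSF 3 it was 0.14.

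The deposited FPKM of GABRB1 gave another picture from its counts, being 0.00953, 0.00739 and 0.0176 in siControl and 0.0327, 0.0199 and 0.0771 in siPSF, with no overlap. FPKM per count of this gene ranged from 0.338 to 1.32 of its median over the libraries, whereas for the other 4 genes it stayed between 0.822 and 1.17. The gene covers 433 kb of chromosome 4 (chr4:46993647-47426447, plus strand). The nearest protein-coding genes in the table were GABRG1, which encodes a gamma subunit, 870 kb away, and COMMD8, 24.3 kb away on the other side. Neither passed the test (log2 fold changes of 0.02 and 0.17), and GABRG1 was at only 0.0962 CPM in siControl.

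Among the GABA-B subunits, GABBR1, which binds GABA, was the most abundant of the 5 genes. It was at 32.5, 36.1 and 33.2 CPM in siControl and at 29.1, 31.2 and 32.8 CPM in siPSF. The highest siPSF library, siPSF 3, lay just above the lowest siControl library, so the groups touched. The mean went from 33.9 ± 1.92 to 31.1 ± 1.86 CPM (SD, n = 3 each), and the log2 fold change was -0.13 (SE 0.09, interval -0.33 to 0.07, adjusted p = 0.388 by edgeR). With 3235 to 4820 counts per library, the interval keeps the siPSF level between 79.5 and 105% of siControl.

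The scale mattered for GABBR1. In FPKM it was 7.12, 8.05 and 7.75 in siControl and 6.23, 6.60 and 6.93 in siPSF, and the groups did not overlap. By limma on log2(FPKM + 0.5) with every library brought to an equal FPKM total, which moved the median of all genes to -0.16, it had a log2 fold change of -0.31 and passed the test (adjusted p = 0.0414). The gene is short, 30.9 kb on chromosome 6 (chr6:29602238-29633183, minus strand), and 14.6% of it is exon in its canonical GENCODE transcript. Its neighbour UBD had a log2 fold change of 0.33 and did not pass the test.

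GABBR2, the signalling partner of GABBR1, was barely detected. Its counts were 6, 8 and 17 in siControl and 22, 25 and 3 in siPSF, or 0.0493, 0.0600 and 0.135 CPM against 0.185, 0.237 and 0.0304 CPM. Both the highest and the lowest value came from siPSF libraries, so the spread within siPSF was wider than the distance between the groups. The 95% Poisson interval of the 3 counts was 0.619 to 8.77 and that of the 25 counts 16.2 to 36.9. The log2 fold change was 0.90 (SE 0.61, interval -0.44 to 2.23, adjusted p = 0.359 by edgeR), and it ranged from 0.45 without siPSF 2 to 1.46 without siControl 3, being 1.36 without siPSF 3 (adjusted p = 0.0747 by edgeR). GABBR2 lies on chromosome 9 (chr9:98288109-98708935, minus strand) over 421 kb, between TBC1D2 and ANKS6, which had log2 fold changes of 0.31 and 0.06 and did not pass the test.

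The balance of the GABA-B subunits was compared as the log2 ratio of GABBR1 to GABBR2 in FPKM, since the receptor needs both. The ratio was 9.81, 9.72 and 8.45 in the siControl libraries and 7.72, 7.47 and 11.1 in the siPSF libraries. GABBR1 thus exceeded GABBR2 by over 7 on the log2 scale in every library. The mean ratio went from 9.33 ± 0.758 to 8.75 ± 2.01 (SD, n = 3 each), and the difference of -0.58 did not hold up against the spread (two-sided exact permutation p = 0.8, where 3 libraries against 3 cannot go below 0.1). Without siPSF 2 the difference was 0.061.

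GLRB encodes the beta subunit of the glycine receptor. It was at 5.57, 5.66 and 5.96 CPM in the siControl libraries and at 5.01, 4.57 and 7.13 CPM in the siPSF libraries. The siControl values lay between those of siPSF, with siPSF 1 and siPSF 2 below and siPSF 3 above all of them. Means were 5.73 ± 0.208 and 5.57 ± 1.37 CPM (SD over 3 libraries), and the log2 fold change was -0.04 (SE 0.16, interval -0.40 to 0.32, adjusted p = 0.897 by edgeR). Without siPSF 3 it was -0.26. The gene spans 95.9 kb of chromosome 4 (chr4:157076150-157172090, plus strand). PDGFC and GRIA2, which encodes an AMPA-type glutamate receptor subunit, flank it and had log2 fold changes of -0.17 and -0.25 without passing the test.

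GABRA3 and GLRB stood at nearly the same level in siControl. Their mean FPKM were 1.43 ± 0.0600 and 1.54 ± 0.0695 (SD, n = 3 each), and their libraries overlapped. After siPSF, GABRA3 was at 0.566, 0.593 and 0.428 FPKM and GLRB at 1.20, 1.11 and 1.66 FPKM, so they no longer overlapped. The log2 ratio of GABRA3 to GLRB, taken in CPM because exon length cancels in the difference between groups, differed by -1.29 between siPSF and siControl. Its exact permutation p was 0.1, the smallest that 3 against 3 allows, and 0.167 after adjustment over the 5 ratios computed. The ratio of GABRA3 to GABBR1 moved by -1.23 with the same p-values. Both ratios were chosen after the data were seen.

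Per exon length, GABBR1 was the most abundant of the 11 receptor genes compared, at a mean of 7.64 FPKM in siControl, and GLRB and GABRA3 came next. GABRD, GABRQ, GABRG3, GABRR2 and GLRA3 lay between 0.232 and 0.0389 FPKM, and GABBR2, GABRG1 and GABRB1 were lowest at 0.0132, 0.0127 and 0.0115 FPKM. GABBR2 and GABRB1 rested on 17 counts or fewer per siControl library, and the order of these 3 does not exceed their spread.

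**Figure D2:**
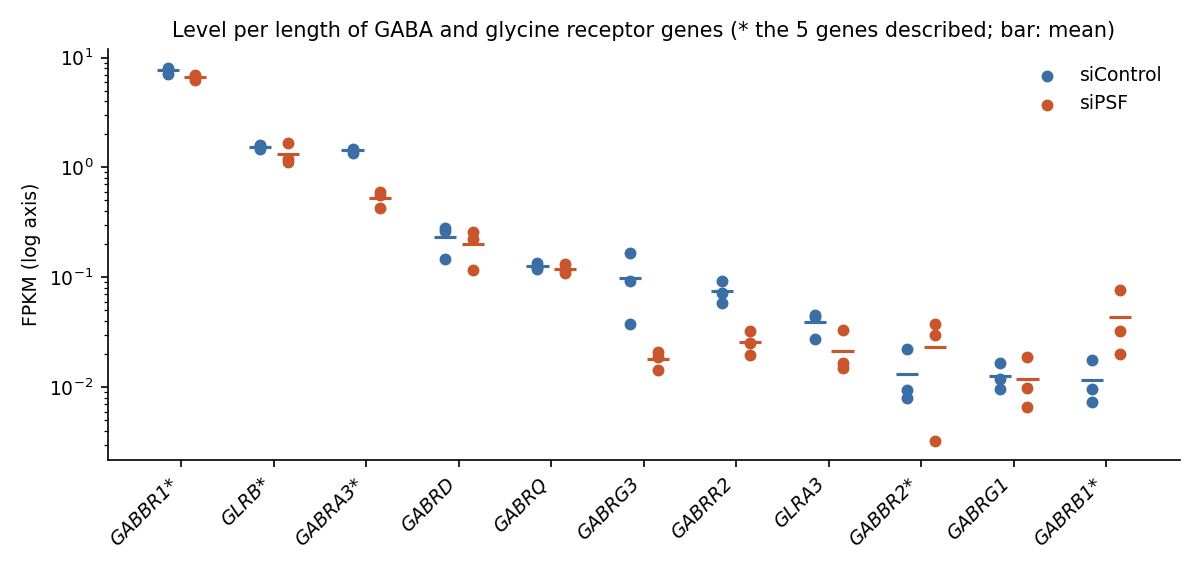
FPKM of 11 receptor genes in each siControl and siPSF library on a logarithmic axis, with the 5 described genes marked. GABBR1 is highest at a mean of 7.64 FPKM in siControl, and GABBR2, GABRG1 and GABRB1 are lowest at 0.0115 to 0.0132 FPKM.

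Of the 18 other receptor subunits looked for, 7 were tested. By edgeR, 2 of the 7 were called lower and 0 higher, beside 8.27% and 6.65% of all genes tested. At an unadjusted p under 0.05, 0 of the 7 were higher in that test. GABRG3, which encodes the gamma-3 subunit of the GABA-A receptor, was at 0.649, 0.450 and 0.635 CPM in siControl and at 0.261, 0.237 and 0.183 CPM in siPSF. Its groups did not overlap, and its log2 fold change of -1.34 (SE 0.30, adjusted p = 0.0103 by edgeR) was close to that of GABRA3. GABRR2, a rho subunit, went from 0.362, 0.285 and 0.405 CPM to 0.168, 0.114 and 0.142 CPM (log2 fold change -1.30, SE 0.33, adjusted p = 0.0215 by edgeR). The call of GABRR2 was lost without siControl 1, siControl 3 or siPSF 2, at adjusted p up to 0.0760 by edgeR.

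GLRA3, GABRD, GABRQ and GABRG1 did not pass the test, with log2 fold changes of -0.70 for GLRA3, 0.23 for GABRD, -0.05 for GABRQ and 0.02 for GABRG1.

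**Figure D3:**
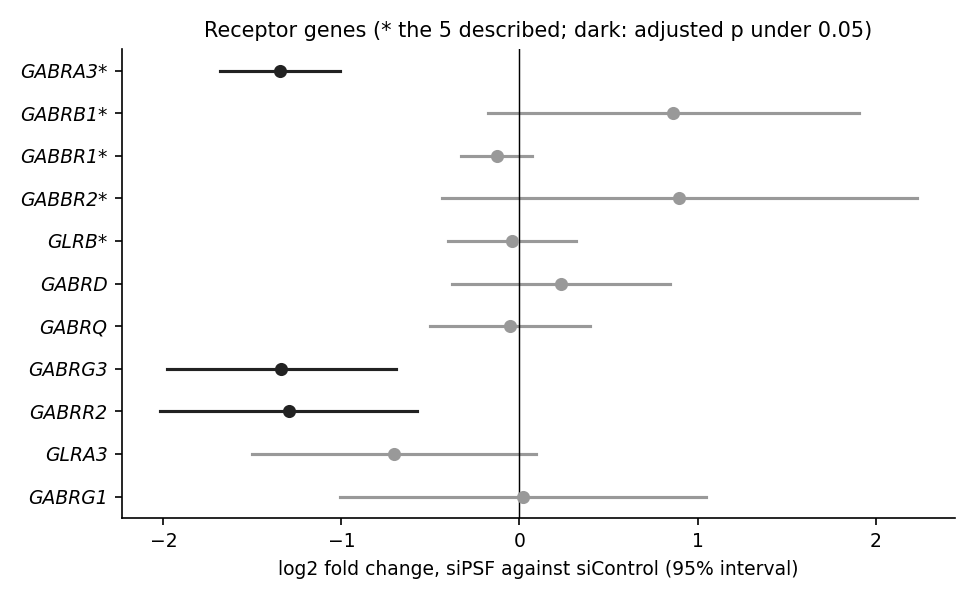
Log2 fold change of 11 receptor genes, siPSF against siControl, with 95% intervals from edgeR; dark points passed an adjusted p under 0.05. GABRA3, GABRG3 and GABRR2 lie between -1.34 and -1.30, and the wide intervals of GABRB1 and GABBR2 reach from below 0 to over 1.9.

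GABRA3, shorter than GABRB1 and GABBR2 among the 5 genes, was set beside genes of its length, since the falls after siPSF were larger in longer genes. Among 763 protein-coding genes of 200 to 400 kb, the median log2 fold change was -0.21, 29.5% were called lower and 1.97% were at or below the value of GABRA3. GABRB1 and GABBR2, both over 400 kb, had positive fitted values in a class of 370 genes whose median was -0.58 and of which 53.8% were called lower. GABRG3, of 571 kb, belongs to this class too, and 11.9% of its genes were at or below the value of GABRA3. The class of GABRB1 depends on the span used: the RefSeq gene record covers 433 kb, and the canonical GENCODE transcript covers 394.9 kb, which falls in the 200 to 400 kb class. GABBR1 and GLRB belong to the class of 30 to 100 kb, with 4480 genes and a median of 0.004. GLRB, at -0.04, lay near that median. GABBR1, at -0.13, lay between it and the lower quartile of -0.16. Gene length moved with the fold change over all genes, and its part in the fall of GABRA3 was not tested.

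**Figure D4:**
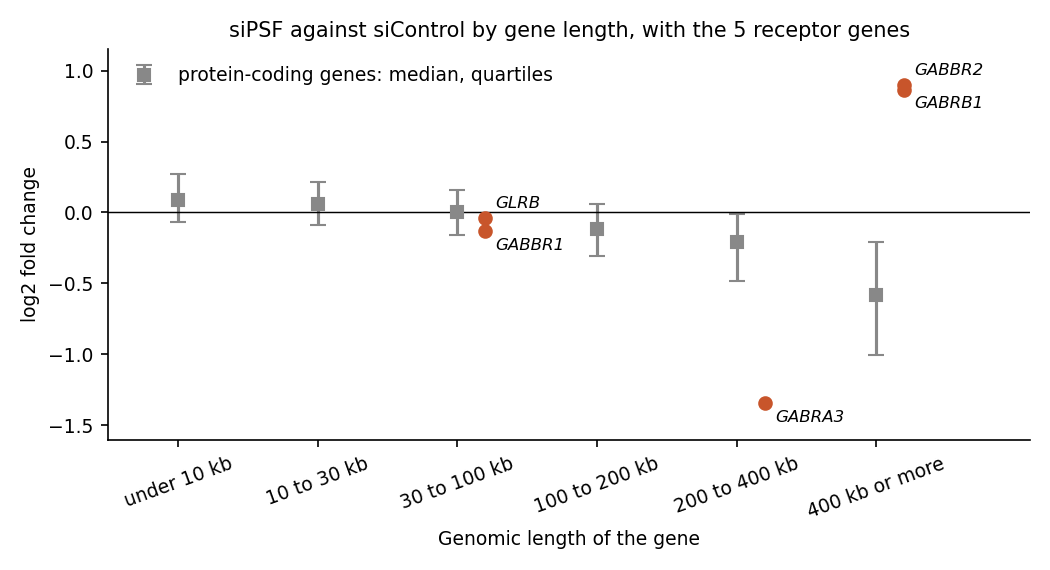
Median and quartiles of the log2 fold change, siPSF against siControl, of protein-coding genes in 6 classes of genomic length (squares), with the 5 receptor genes (points). GABRA3 lies at -1.34 where the class median is -0.21. GABRB1 and GABBR2, both at low counts and drawn without their intervals, lie above 0 where it is -0.58.

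The genes whose pattern over the 6 libraries was most like that of GABRA3 were PRKCA, which encodes protein kinase C alpha, DPP6, an auxiliary subunit of A-type potassium channels, and CLYBL, a mitochondrial enzyme. Likeness was the root mean square difference of log2 CPM centred on each gene's mean, over 12653 protein-coding genes of at least 1 CPM. The differences were 0.0701 for PRKCA, 0.0716 for DPP6 and 0.0848 for CLYBL. DPP6 went from 16.4, 16.4 and 18.1 CPM to 7.08, 7.09 and 5.37 CPM, with siPSF 3 lowest as in GABRA3.

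The genes that make, move and anchor these transmitters and their receptors were counted by role. Of 100 listed genes 82 were tested, the 7 receptor subunits above among them. Of these 82, 9 were called lower and 6 higher, beside 8.27% lower and 6.65% higher over all genes tested. The median log2 fold change of the 82 was -0.04, beside 0.01 over all genes tested. The 15 calls became 6 without siControl 2 or without siControl 3, 8 without siPSF 1 and 9 without siControl 1. Calls over all genes fell in these fits too, from 1628 lower and 1310 higher with all 6 libraries. They were 928 and 572 of 19907 genes without siControl 2, and 1022 and 732 of 19889 without siControl 3. Without siPSF 1 they were 1130 and 845 of 19919, and without siControl 1 they were 1436 and 1130 of 19879. For synthesis and breakdown of GABA and glycine, 12 of 14 genes were tested and 0 were called by edgeR, 2 of them being higher and 0 lower at an unadjusted p under 0.05. ABAT, which breaks down GABA, was one of those not called (log2 fold change -0.05). GAD1 and GAD2, which make GABA, were not analysed here.

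Among transporters, 1 of 12 tested genes was called, beside 14.9% of all genes tested. It was SLC6A6, the taurine transporter. It went from 17.4, 17.4 and 16.8 CPM to 10.4, 11.3 and 13.0 CPM (log2 fold change -0.57, SE 0.11, adjusted p = 0.00512 by edgeR). Taurine is a weak agonist of glycine and GABA-A receptors.

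Among 28 anchoring and trafficking genes tested, 1 fell and 3 rose, beside 8.27% and 6.65% of all genes tested. LHFPL4, which holds GABA-A receptors at inhibitory synapses, had a log2 fold change of -0.34 (adjusted p = 0.0190 by edgeR), a call lost without siControl 2 or siPSF 1. INSYN2A, an inhibitory synapse factor, was at 0.181, 0.172 and 0.0476 CPM in siControl and at 0.648, 0.616 and 0.355 CPM in siPSF. Its log2 fold change was 2.01 (SE 0.44, adjusted p = 0.00942 by edgeR). GABARAPL2 and PLCL2 rose by 0.28 and 0.42 on the log2 scale, and each of these calls was lost in at least 4 of the 6 fits that left out a library. GPHN, which encodes gephyrin, the scaffold bound by GLRB, had a log2 fold change of -0.06 (adjusted p = 0.718 by edgeR).

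Of 23 tested partners and effectors of the GABA-B receptor, 5 fell and 3 rose, beside 8.27% and 6.65% of all genes tested. RGS7, which speeds the shut-off of the G protein, went from 5.15, 4.89 and 5.58 CPM to 3.01, 2.55 and 1.94 CPM (log2 fold change -1.06, SE 0.17, adjusted p = 0.00173 by edgeR). KCNJ3, a subunit of the potassium channel opened by that G protein, went from 9.75, 9.98 and 11.8 CPM to 7.19, 6.64 and 7.59 CPM. Its log2 fold change was -0.56 (SE 0.12, adjusted p = 0.0100 by edgeR), and neither gene overlapped between the groups.

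KCTD16, an auxiliary subunit that binds GABBR2, went from 4.28, 4.45 and 4.54 CPM to between 2.37 and 3.16 CPM in the 3 siPSF libraries (log2 fold change -0.64, adjusted p = 0.0153 by edgeR). This call was lost without siControl 2 or siControl 3. In the deposited FPKM the groups of KCTD16 overlapped, at 0.301, 0.309 and 0.328 in siControl and 0.365, 0.230 and 0.230 in siPSF. RGS4, another regulator of G protein signalling, was at 58.9, 68.9 and 84.0 CPM in siControl and at 98.8, 88.8 and 160 CPM in siPSF (log2 fold change 0.72, adjusted p = 0.0261 by edgeR). Without siPSF 3, the highest library, the log2 fold change was 0.41. Leaving out any 1 siControl library ended this call, as did DESeq2's Wald test (adjusted p = 0.101).

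The other called genes of this role were GNAO1 and APP, which fell, and KCNJ9 and ATF4, which rose. GNAO1, the alpha subunit of the G protein Go, had a log2 fold change of -0.39, and APP, the amyloid precursor protein, which binds GABBR1, of -0.33. The values of KCNJ9, another potassium channel subunit of the family of KCNJ3, and of ATF4, a transcription factor, were 0.39 and 0.28.

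**Figure D5:**
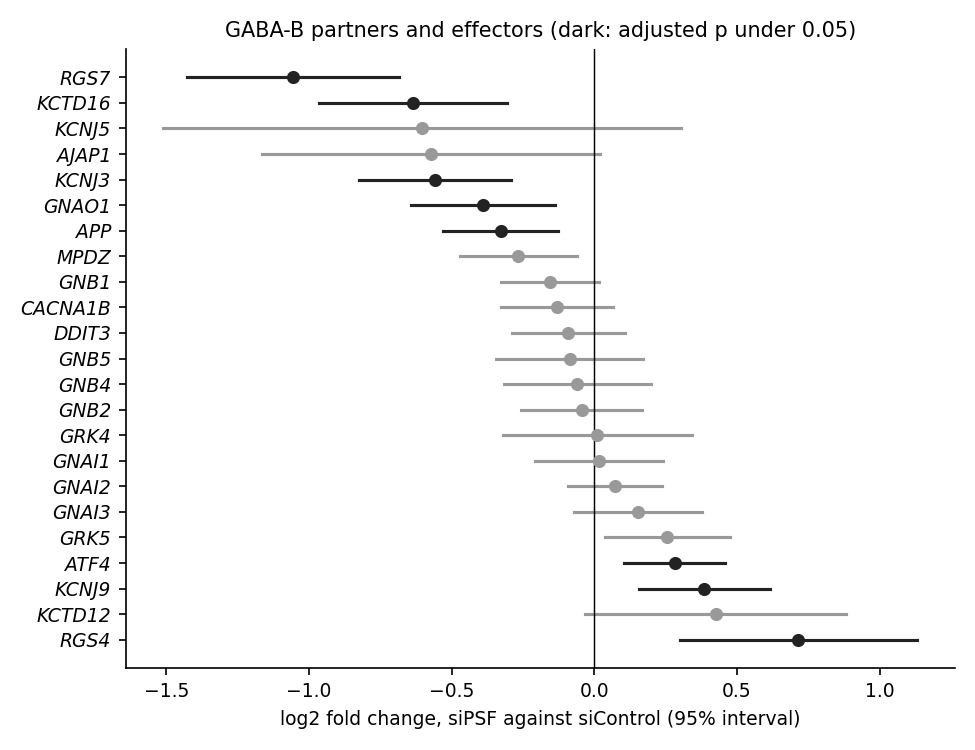
Log2 fold change of the 23 tested partners and effectors of the GABA-B receptor, siPSF against siControl, with 95% intervals from edgeR; dark points passed an adjusted p under 0.05. RGS7 has the lowest value, -1.06, and RGS4 the highest, 0.72.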

How the data were processed

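RNA-seq of SH-SY5Y cells treated with siControl or siPSF was analysed, 3 libraries per group, grouped by sample label. To make the deposited counts, the authors removed rRNA reads with Bowtie 2, mapped 50 bp paired-end reads with TopHat to hg38 and counted them on RefSeq. The submitters' processing notes name instead Trimmomatic, HISAT2 2.1.0 and StringTie 2.1.3b with GRCh38. The authors also deposited FPKM values, which the methods call RPKM. The methods name a TruSeq RNA kit and the labels a stranded kit, and use of strand in counting is not given in the sources used here. None of the 5 genes overlaps another gene with a row. The smallest count in the table is 1.

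Counts were filtered with filterByExpr, normalized by TMM and tested with edgeR 4.0.16 (R 4.3.3), quasi-likelihood, without a replicate block, with Benjamini-Hochberg adjustment over 19694 genes. The common biological coefficient of variation was 12.6%. The methods call the libraries biological triplicates, and p-values measure the spread between these libraries. No 2 replicate libraries were alike within sampling noise (chi-square per degree of freedom of 22.6 or more). Alternatives used DESeq2 1.42.0 and limma 3.58.1. The procedure was tested on simulated data. The 5 genes' positions and lengths came from RefSeq on GRCh38.p14, in which 97.8% of gene IDs were found, and exons and introns from canonical GENCODE transcripts. The receptor genes and all lists were chosen with earlier results of these data known. Genes were named if they were receptor subunits, neighbours, among the 3 most like GABRA3, or among the up to 4 called genes of smallest p per role. GNAO1, APP, KCNJ9 and ATF4 beyond these, and ABAT and GPHN, were named after their values were seen. Some genes that the rule selects are not reported here; counts include them.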

Additional observations from a re-analysis of the deposited data

How the results depend on the processing

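The fall of GABRA3 passed the test in every alternative run, at log2 fold changes from -1.44 to -1.22 when 1 library was left out, -1.35 by DESeq2's Wald test and -0.91 to -1.29 by limma on FPKM, where the added offset shrinks the change. GABRB1, GABBR2 and GLRB did not pass in any. Leaving out 1 library, GABRB1 ranged from 0.14 to 1.18 and GABBR2 from 0.45 to 1.46. GLRB ranged from -0.26 to 0.082 when 1 library was left out, being positive without siPSF 1 (0.028) and siPSF 2 (0.082). GABBR1 passed only by limma on rescaled FPKM (-0.31). There, 2 of the 3 receptor genes held were called lower, beside 3409 of all 14830 genes tested. The median of the 5 was -0.20, -0.31 and -0.23 by limma on log2(FPKM + 0.5), on the rescaled values and on log2(FPKM + 0.1), which held 3 of the 5 genes, and -0.17 to 0.082 leaving out 1 library. Of the 82 other genes 15 were called, and 16 with the replicate block. DESeq2's Wald test called 17, beside 2058 lower and 1586 higher of 19236 genes. Limma, which held fewer of the 82, called 17 on rescaled FPKM. With the 0.1 offset it called 9, beside 1771 lower and 737 higher of 14830 genes. Leaving out 1 library gave 6 to 15, beside 928 to 1735 lower and 572 to 1405 higher over all genes. GABRG1 was -0.026 with a replicate block and -0.49 to 0.28 leaving out 1 library, among them -0.14, -0.05 and -0.49 without siControl 1, siControl 3 and siPSF 1. The difference between siPSF and siControl in the log2 ratio of GABBR1 to GABBR2 ranged from -1.74 without siPSF 3 to 0.061 without siPSF 2.

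Deviations of same-numbered libraries correlated weakly or not at all (r of -0.04, 0.20 and 0.10 for numbers 1 to 3). Of the 6 libraries, 3 correlated best with their own number, and whether the numbers mark pairs was not tested. With the replicate block, 1640 genes were called lower and 1389 higher, beside 1628 and 1310, 1 of the 5 genes was called, and GABRA3 was at -1.36. Rescaled FPKM gave 3409 lower and 464 higher calls among 14830 genes, and leaving out siControl 2 gave 928 and 572 among 19907. GABRB1 and GABBR2, at a mean FPKM under 0.5, had no value by limma. Their edgeR intervals were wide (-0.18 to 1.91 and -0.44 to 2.23), so changes within them cannot be set aside. The smallest change detectable at these counts was not tested.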
